A study of Mus musculus with 3 samples.

Results

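The matrix metalloproteinases (MMPs) and the tissue inhibitors of metalloproteinases (TIMPs) were followed in the lungs of tumour-bearing and normal mice. They were represented by 10 genes, 7 MMPs (Mmp2, Mmp3, Mmp8, Mmp9, Mmp11, Mmp12 and Mmp14) and 3 TIMPs (Timp1, Timp2 and Timp3), out of 8251 genes that the array annotation names by a single symbol. Every probe set whose single symbol is 1 of these genes was taken, which gave 16 of the 12422 probe sets, 10 for MMPs and 6 for TIMPs. A probe set is a group of short probes for 1 transcript, and its signal is a brightness in arbitrary units. Total RNA of frozen lung was measured on 3 Affymetrix mouse expression arrays. The B16-bearing lung came from a mouse or mice with tumours of B16, a mouse melanoma line, the LLC-bearing lung from a mouse or mice with tumours of LLC, the Lewis lung carcinoma line, and the normal lung, the control, from mice without a tumour. A value "with B16 tumours" or "with LLC tumours" below is that of the B16-bearing or LLC-bearing lung. Tumour cells had been placed under the skin of the back, and the series' design text presents the lungs as a model of the time before metastasis. Whether tumour cells were in these lungs was not tested. Strain, age, the time after injection and the number of animals per sample were not stated in the labels. Each group was 1 array, so no difference below has a replicate check or a test, and every value describes these arrays. The 3 comparisons share arrays, and both comparisons with control use the same control array.

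MMPs are zinc-dependent enzymes that are made as inactive proenzymes, are activated by removal of a propeptide, and cut collagens, elastin, laminin and other matrix proteins as well as growth factors and chemokines. TIMPs bind the active site and block it, and some also bind the proenzymes. In the lung, neutrophils carry MMP8 and MMP9 in their granules, alveolar macrophages make MMP12, and fibroblasts are a main source of MMP2, MMP3, MMP11 and MMP14. Earlier work of the field tied the induction of Mmp9 in lung endothelium and macrophages by a distant tumour, through the receptor VEGFR1, to later metastasis in the lung, which is the question that the normal lung and the tumour-bearing lungs address for this family.

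The lung identity of the samples was clear from its markers. All 9 lung epithelial markers on the array were above the floor in all 3 samples, with a summed signal of 23651 with B16 tumours, 22524 with LLC tumours and 20495 in the normal lung. The floor, a signal of 23.6, is the level below which values were not ordered. Hepatocyte markers stood apart with LLC tumours, where 12 of 15 were above the floor against 4 in each other lung. Heart and muscle markers were summed at 3086 in the normal lung, 1768 with B16 tumours and 1318 with LLC tumours. Of 8 melanocyte markers, 3 were above the floor with B16 tumours, 4 with LLC tumours and 2 in the normal lung. Dct, which encodes a melanin synthesis enzyme, read 196 with LLC tumours and was under the floor in the other lungs. Against control, 2 melanocyte markers were higher with LLC tumours, Dct and Tyr, and 2 were lower, Pmel and Trpm1. Pmel read 78.6 with B16 tumours, 40.7 with LLC tumours and 85.9 in the normal lung, and Trpm1 169, 135 and 149.

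The promoters of Mmp3 and Mmp11 are shown because these genes had the larger differences between the lungs among the members with an entry in the RefSeq promoter table (GRCm38.p6), and that of Mmp12 because it carries the same motif as Mmp3 at nearly the same place. The table held 9 entries for 8 of the 10 members, and had none for Mmp2 and Mmp9. Each line gives the 200 bases before the annotated start, 5′ to 3′ on the gene's strand. Capitals mark matches to the AP-1 motif (TGAGTCA, both strands), the TATA box (TATAAA, gene's strand) or the GC box (GGGCGG, both strands). AP-1 is a dimer of Fos and Jun proteins and a well-known regulator of MMP genes. The windows are chr9:7445622-7445821 (plus strand) for Mmp3, chr9:7347174-7347373 (plus strand) for the second of 2 annotated starts of Mmp12, and chr10:75932503-75932702 (minus strand) for Mmp11.
Mmp3: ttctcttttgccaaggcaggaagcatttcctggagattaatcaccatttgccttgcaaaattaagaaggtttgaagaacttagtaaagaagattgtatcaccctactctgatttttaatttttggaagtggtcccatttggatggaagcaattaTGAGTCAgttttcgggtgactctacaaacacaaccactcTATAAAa
Mmp12 start 2: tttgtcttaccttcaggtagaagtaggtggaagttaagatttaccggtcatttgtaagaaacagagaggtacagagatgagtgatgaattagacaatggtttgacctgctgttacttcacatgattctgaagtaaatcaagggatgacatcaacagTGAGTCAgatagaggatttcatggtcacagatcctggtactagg
Mmp11: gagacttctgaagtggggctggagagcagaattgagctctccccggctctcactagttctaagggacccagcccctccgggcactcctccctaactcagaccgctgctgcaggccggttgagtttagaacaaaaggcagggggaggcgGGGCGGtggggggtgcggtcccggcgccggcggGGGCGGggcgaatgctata
In Mmp3 the AP-1 match began 46 bases and the TATA box 7 bases before the start, and in Mmp12 the AP-1 match began 44 bases before the start. The Mmp11 window had GC boxes at 52 and 19 bases before the start and no AP-1 or TATA match. Over all 32851 promoter entries, 3.66% held the AP-1 motif in the same window, 6.27% the TATA box and 31.0% the GC box. Among the 9 member entries, 2 held the AP-1 motif, 1 the TATA box and 5 the GC box, the last being those of Mmp11, Mmp14, Timp1, Timp2 and Timp3. The windows of Mmp8 and of the first start of Mmp12 held none of the 3 motifs. A match to these letters describes the sequence and is no evidence of binding.

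**Figure D1:**
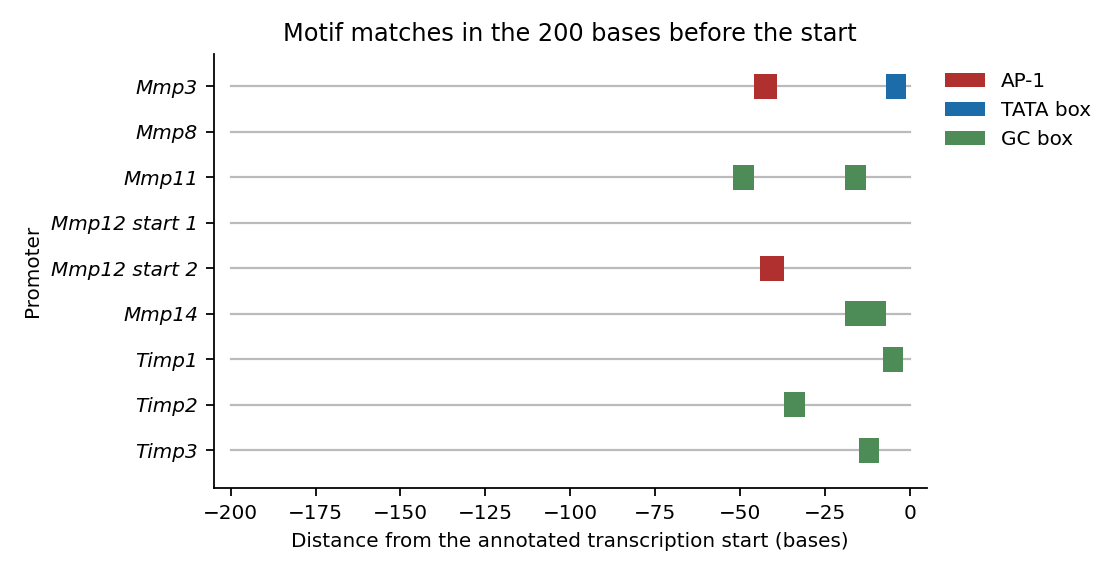
Positions of motif matches in the 200 bases before each annotated start (x axis, bases from the start) for the 9 promoter entries of 8 members (rows); boxes mark AP-1, TATA box and GC box matches. The AP-1 matches of Mmp3 and of the second Mmp12 start lie 46 and 44 bases before the start, and the GC boxes lie in Mmp11, Mmp14 and the 3 TIMP genes.

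Not every member gave a signal that could be compared. Of the 16 probe sets, 8 were above the floor on all 3 arrays (beside 53.5% of all probe sets), 1 on the control array alone and 7 on none. The 8 belong to 8 different genes, and 2 genes, Mmp2 and Mmp8, were never above the floor. Because brightness differs between probe sets for reasons other than transcript number, signals were compared between arrays and not between genes.

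**Figure D2:**
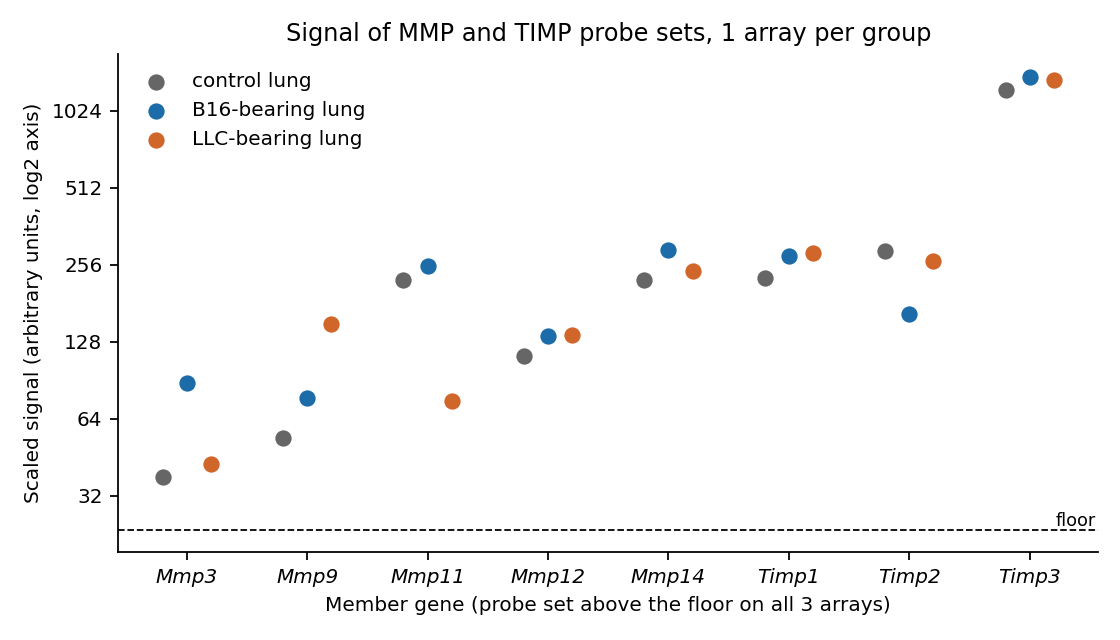
Scaled signal (y axis, arbitrary units, log2 axis) of the 8 member probe sets above the floor on all 3 arrays, with 1 point per array in the control, B16-bearing and LLC-bearing lung; the dashed line is the floor of 23.6. Mmp9 stands out with LLC tumours at 150 and Mmp3 with B16 tumours at 88.6, while Mmp11 is low with LLC tumours at 75.3 and Timp2 with B16 tumours at 164.

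Mmp9, gelatinase B, which cuts denatured collagen and type IV collagen of basement membranes, was higher in both tumour-bearing lungs. Its signal was 54.0 in the normal lung, 77.6 with B16 tumours and 150 with LLC tumours. The LLC-bearing lung was 2.79-fold above control (a log2 difference of 1.48) and the B16-bearing lung 1.44-fold (0.52). The yardstick without replicates was the robust SD of the log2 difference over all probe sets of like mean signal, a spread that holds real differences as well as noise. For probe sets with a mean signal of 50 to 100 it was 0.45 with LLC tumours and 0.53 with B16 tumours. The Mmp9 difference was therefore 3.31 robust SDs with LLC tumours and 0.98 with B16 tumours, where it did not leave the spread. Between the tumour-bearing lungs Mmp9 was 1.94-fold lower with B16 tumours (−0.96, 1.89 robust SDs). A second Mmp9 probe set, whose name marks probes shared by a gene family, read 10.3, 6.37 and 1.30 with B16 tumours, LLC tumours and no tumour and stayed below the floor, so the Mmp9 result rests on 1 probe set. With a floor at a signal of 100 only the LLC-bearing value is measured, and its log2 difference from control is then at least 0.59, short of 2-fold.

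Most neutrophil markers, but not all, had the same order over the lungs as Mmp9. Of 16 markers on the array 13 were higher than control with LLC tumours, 5 of them at least 2-fold. With B16 tumours 13 were higher, 4 of them at least 2-fold. Among all probe sets 2.7% were at least 2-fold higher with LLC tumours and 2.19% with B16 tumours. Il1r2, counted in both lungs, and Prtn3, counted with LLC tumours, had only lower bounds. The summed signal of the 16 markers was 2338 in the control, 3701 with B16 tumours and 5541 with LLC tumours. S100a8 and S100a9, the calprotectin subunits, carried most of these differences, since the sum without them was 1548, 1610 and 2047. Of the 14 markers above the floor in at least 1 lung, 11 were lowest in the control and highest with LLC tumours. The other 3 were Camp and Elane, both highest with B16 tumours at 300.2 and 76.5, and Chil3, highest in the control at 549.5. Ngp and Itgb2l were below the floor on all 3 arrays. The summed signal of 17 macrophage and monocyte markers was 4851 in the control, 4345 with B16 tumours and 6100 with LLC tumours. Without Lyz2, the brightest of them, it was 2148, 2163 and 3134. Of the 14 above the floor in at least 1 lung, 3 had the order of Mmp9 over the lungs (Cd14, C1qa and C1qc). Highest with LLC tumours, as Mmp9 was, were 9 of the 14. Against control 11 were higher and 3 lower with LLC tumours, and Ccr2 and C1qa were at least 2-fold higher. Ccr2 read 294 with LLC tumours, 27.8 with B16 tumours and 46.8 in the control. With B16 tumours 6 were higher than control and 8 lower, 1 of them at least 2-fold lower, beside 3.18% of all probe sets. Adgre1, Marco and Siglec1 were below the floor throughout. The part of either cell type in the Mmp9 signal was not tested, and in whole lung a larger number of such cells cannot be told apart from more RNA per cell. Mmp8, the neutrophil collagenase, did not add a value here, since its probe set read −146, −73.0 and −147 with B16 tumours, LLC tumours and no tumour. Mmp2, gelatinase A, which fibroblasts make and MMP14 activates, was below the floor on both of its probe sets. They ranged from −22.6 to 9.60 over the 3 arrays.

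Mmp3, stromelysin 1, which cuts many matrix proteins and activates other MMP proenzymes, was higher with B16 tumours. Its signal was 88.6 there against 42.5 with LLC tumours and 38.0 in the normal lung. The B16-bearing lung was 2.33-fold above control (1.22, 2.28 robust SDs) and 2.08-fold above the LLC-bearing lung (1.06, 2.09 robust SDs). The LLC-bearing and normal lungs differed by 1.12-fold (0.16, 0.36 robust SDs), within the spread. All 3 values lie at the dim end of the array, and with a floor at a signal of 100 none of them is measured.

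Mmp11, stromelysin 3, which is activated inside the cell by the protease furin and is known from fibroblasts around tumours, was lower with LLC tumours. Its signal was 75.3 there against 253 with B16 tumours and 223 in the normal lung. The LLC-bearing lung was 2.96-fold below control (−1.57, 4.74 robust SDs) and the B16-bearing lung 3.37-fold above the LLC-bearing lung (1.75, 4.41 robust SDs). The B16-bearing and normal lungs differed by 1.14-fold (0.19, 0.42 robust SDs). In units of this spread these were the largest differences of any of the 8 comparable member probe sets. The summed signal of 16 fibroblast and mesothelial markers was 8278 with B16 tumours, 8343 with LLC tumours and 8149 in the normal lung. Without Inmt, the brightest of them, it was 4759, 4716 and 4548. Without Inmt and Pdgfra, the 2 brightest, it was 3681, 3901 and 3616. Of the 15 markers above the floor in at least 1 lung, 4 had the order of Mmp11 over the lungs (Pdgfra, Dcn, Msln and Wt1) and 6 were lowest with LLC tumours. Pdgfra, a receptor of lung fibroblasts, read 1077, 815 and 932 with B16 tumours, LLC tumours and no tumour, while Fbln1, which encodes a matrix glycoprotein, read 155, 346 and 248. The part of fibroblasts and mesothelial cells in the Mmp11 signal was not tested. Furin itself read 365, 405 and 346 in the same order. Mmp11 has a single probe set, so no second reading of the transcript was at hand.

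Mmp12, the macrophage elastase, was slightly above control in both tumour-bearing lungs. Its brighter probe set, named as one with relaxed probe selection, read 135 with B16 tumours, 136 with LLC tumours and 113 in the normal lung. These are 1.20-fold and 1.21-fold differences (0.26 and 0.27), both under 1 robust SD. The second Mmp12 probe set stayed under the floor throughout, at 13.0, 18.9 and 18.5. Mmp14, the membrane-bound MT1-MMP that activates the Mmp2 proenzyme, read 293, 242 and 224 with B16 tumours, LLC tumours and no tumour. It was 1.31-fold above control with B16 tumours (0.39, 1.11 robust SDs) and 1.08-fold with LLC tumours (0.11, 0.42 robust SDs).

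Among the inhibitors, Timp2 was lower with B16 tumours than in both others. Timp2 blocks MMPs and also helps MMP14 to activate the Mmp2 proenzyme. The signal of its bright probe set was 164 with B16 tumours, 265 with LLC tumours and 290.2 in the normal lung. The B16-bearing lung was 1.77-fold below control (−0.82, 2.36 robust SDs) and 1.62-fold below the LLC-bearing lung (−0.69, 2.19 robust SDs), while the LLC-bearing and normal lungs differed by 1.09-fold (−0.13, 0.48 robust SDs). Of the other Timp2 probe sets, 1 read 25.0 in the normal lung, just above the floor, and −46.7 and 14.4 with B16 and LLC tumours, at least 1.06-fold lower in both. The remaining Timp2 probe set, whose name marks an incomplete set of probes, was below the floor throughout. Neither therefore gave a measured fold for Timp2.

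Timp1, which binds the Mmp9 proenzyme and is a known early response gene of inflamed tissue, was a little above control in both tumour-bearing lungs. Its bright probe set read 278 with B16 tumours, 285 with LLC tumours and 227 in the normal lung. The differences were 1.22-fold (0.29, 0.83 robust SDs) and 1.25-fold (0.33, 1.22 robust SDs), and the tumour-bearing lungs differed by 1.03-fold. The second Timp1 probe set stayed at 6.12, 6.68 and 9.50, below the floor. Timp3, which is held in the matrix and also blocks some ADAM proteases, was slightly above control in both tumour-bearing lungs. It read 1393 with B16 tumours, 1354 with LLC tumours and 1236 in the normal lung, 1.13-fold and 1.10-fold above control (0.17 and 0.13, 0.65 and 0.66 robust SDs).

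**Figure D3:**
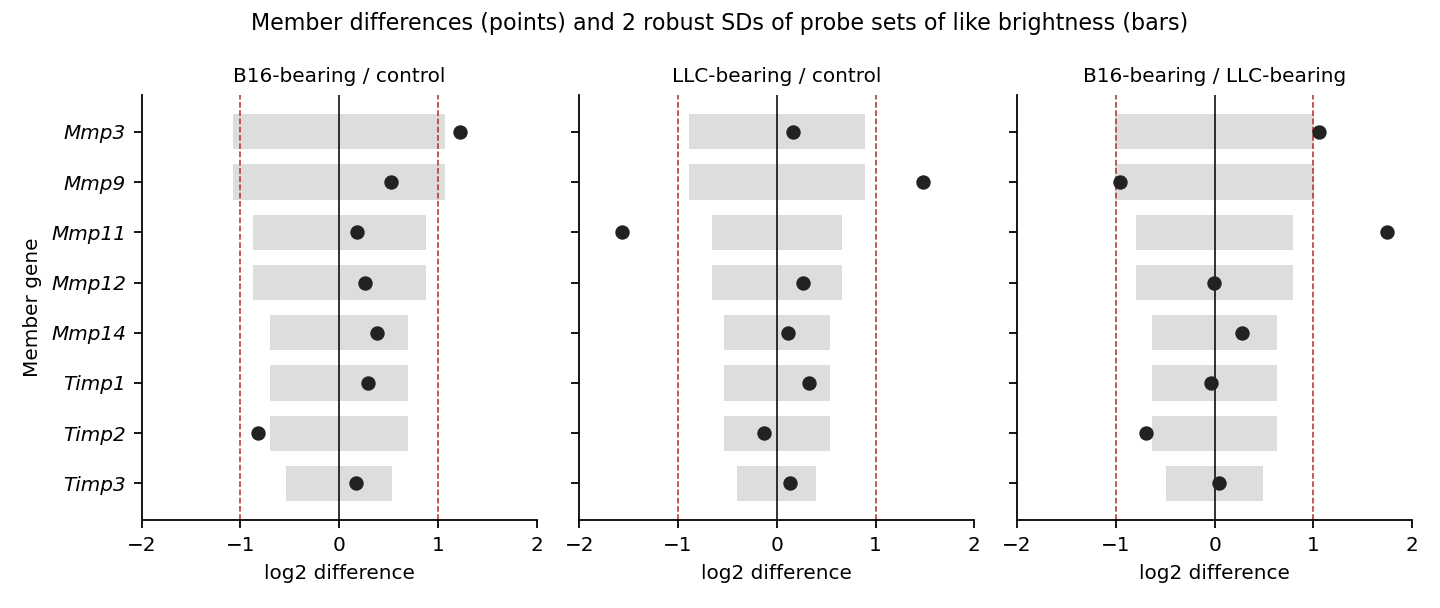
log2 difference (x axis) of each of the 8 member probe sets above the floor on all 3 arrays (points), by comparison (panels), over a grey bar of 2 robust SDs to each side for all probe sets of like mean signal; dashed lines mark 2-fold. Outside their bar lie Mmp3 and Timp2 with B16 tumours against control, Mmp9 and Mmp11 with LLC tumours against control, and Mmp3, Mmp11 and Timp2 between the tumour-bearing lungs.

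Counted over all 16 probe sets, few members differed by 2-fold. In the B16-bearing lung against control 1 was at least 2-fold higher, Mmp3, against 2.19% of all probe sets, and 0 were lower, against 3.18%. In the LLC-bearing lung against control 1 was higher, Mmp9, against 2.7%, and 1 lower, Mmp11, against 1.89%. In the B16-bearing lung against the LLC-bearing lung 2 were higher, Mmp3 and Mmp11, against 2.25%, and 0 lower, against 3.33%. No measured TIMP difference reached 2-fold in any of the 3 comparisons. In the 16 probe sets, 1 is 6.25% and 2 are 12.5%, which is above these shares, but counts this small do not set the family apart. Differences of this size are more common among dim probe sets. With a mean signal of 50 to 100, as for Mmp3 and Mmp9, 5.21% were at least 2-fold higher with B16 tumours and 5.99% with LLC tumours than in control. With a mean signal of 100 to 200, as for Mmp11, 1.94% were at least 2-fold lower with LLC tumours than in control and 2.72% at least 2-fold higher with B16 tumours than with LLC tumours. Of the probe sets like Mmp3 and Mmp9 in signal, 5.78% were at least 2-fold higher with B16 than with LLC tumours. Differences of more than 2 robust SDs were also not rare. Against control they were seen with B16 tumours in 11.6% of the probe sets at a signal of 50 to 100, where Mmp3 lay, and in 8.72% at 200 to 500, where Timp2 lay. With LLC tumours they were seen in 12.6% at 50 to 100, where Mmp9 lay, and in 11% at 100 to 200, where Mmp11 lay. Between the tumour models the shares were 13% at the signal of Mmp3, 10.3% at that of Mmp11 and 10.5% at that of Timp2.

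The median log2 difference over the 16 member probe sets was 0 in each of the 3 comparisons, as it was over all 12422 probe sets, since 7 members were below the floor on both arrays of every comparison. The members spread from −0.82 to 1.22 with B16 tumours and from −1.57 to 1.48 with LLC tumours against control. Of the 8 comparable probe sets, 6 were above control in both tumour-bearing lungs (Mmp3, Mmp9, Mmp12, Mmp14, Timp1 and Timp3), 1 below it in both (Timp2) and 1, Mmp11, above it in one and below it in the other. Of all 6650 probe sets above the floor on all 3 arrays, 33.4% were higher than control and 33.8% lower than control on each tumour array. Both lungs were read against the same control array, and most of these differences lay within the spread.

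Mmp3, Mmp8 and Mmp12 are neighbours in a run of 10 MMP genes on mouse chromosome 9 in the RefSeq annotation, in the order Mmp13, Mmp12, Mmp1b, Mmp3, Mmp1a, Mmp10, Mmp8, Mmp27, Mmp20 and Mmp7. Of these 10 genes 6 were on the array, and 2, Mmp12 and Mmp3, were above the floor in any lung. Mmp10, the other stromelysin of the run, read 7.50, −0.51 and 6.60 with B16 tumours, LLC tumours and no tumour, and Mmp13, a collagenase, 7.21, 10.2 and 9.20. The B16-bearing signal of Mmp3 was thus not accompanied by a measurable signal of its stromelysin neighbour. Timp1 and Timp3 each lie within a synapsin gene, Syn1 and Syn3, in the same annotation, and neither synapsin gene had a named probe set.

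Other metalloproteinases were compared as a list of 34 genes, of which 19 were on the array and 9 above the floor in at least 1 lung. In all 3 comparisons 0 of the 19 were past 2-fold upward and 0 past 2-fold downward, where 3, 1 and 2 of them had only a lower bound (B16-bearing against control, LLC-bearing against control and between the tumour-bearing lungs). The list holds other MMPs, the ADAM sheddases, which release membrane proteins, and the ADAMTS enzymes. All 6 further MMPs on the array, Mmp7, Mmp10, Mmp13, Mmp16, Mmp17 and Mmp24, were below the floor on every array.

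Inhibitors, activators and docking partners of MMPs were a list of 32 genes with 28 on the array. None was past 2-fold with B16 tumours against control, where 4 had only a lower bound under 2-fold. In the LLC-bearing lung 2 were at least 2-fold higher than control, Pzp and Plg, beside 2.7% of all probe sets. Another 2 had only a lower bound under 2-fold. Pzp and Plg were both lower again with B16 tumours than with LLC tumours. Pzp, a broad protease inhibitor of the alpha-2-macroglobulin family, read 140 with LLC tumours, 29.1 with B16 tumours and 24.7 in the normal lung, 5.68-fold above control (2.51). Plg, which encodes plasminogen, the precursor of the MMP-activating protease plasmin, read 64.1 with LLC tumours and was below the floor in the other lungs, at least 2.72-fold higher. Both are made mainly by the liver, and the summed signal of 15 hepatocyte markers was 5309 with LLC tumours against 517 and 486 in the B16-bearing and normal lung. Alb, Apoa1 and Fga, which define hepatocytes, were under the floor in the other lungs, and the part of hepatocyte RNA in the Pzp and Plg signals was not tested. Reck, a membrane-bound MMP inhibitor, read 261, 201 and 292 with B16 tumours, LLC tumours and no tumour, and Bsg, the MMP inducer basigin, 631, 535 and 686. Neither reached 2-fold.

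Inducers of MMP genes and their transcription factors were a list of 32 genes with 29 on the array. With LLC tumours 1, Il1b, was past 2-fold against control, upward, beside 2.7% of all probe sets. Another 3 had only a lower bound under 2-fold there, among them Fosl2, an AP-1 subunit, at least 1.73-fold lower. With B16 tumours none was, but Tgfb1 was at least 1.99-fold and Egr1 at least 1.53-fold lower than control, bounds that do not place them under 2-fold. Il1b encodes interleukin 1 beta, a cytokine that induces Mmp3 and Mmp9 in many cells. It read 183 with LLC tumours, 48.9 with B16 tumours and 40.6 in the normal lung, 4.50-fold above control (2.17). Il1b and Mmp9 were both highest with LLC tumours, and Mmp3 was highest with B16 tumours. Any link of Il1b to either gene was not tested. In the B16-bearing lung against the LLC-bearing lung 3 list genes were at least 2-fold lower, beside 3.33% of all probe sets. They were Il1b by 3.73-fold (−1.90), Egr1 by at least 2.50-fold and Tgfb1 by at least 2.32-fold. Egr1, an immediate early transcription factor, read 59.1 with LLC tumours and 36.0 in the normal lung, and Tgfb1, which encodes transforming growth factor beta 1, read 54.8 and 47.0; both were below the floor with B16 tumours. The AP-1 subunit Fos read 291, 235 and 171 with B16 tumours, LLC tumours and no tumour, under 2-fold in both comparisons with control. Flt1, which encodes VEGFR1, read 501, 341 and 327, 1.53-fold above control with B16 tumours and 1.04-fold with LLC tumours. Furin, Reck, Bsg, Fos, Flt1 and the cell type markers described singly were chosen after their values were seen.

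Matrix proteins that MMPs cut were a list of 24 genes with 22 on the array. In the B16-bearing lung 1 was at least 2-fold higher than control, beside 2.19% of all probe sets. This was Eln, which encodes elastin, a substrate of MMP12 and MMP9. It read 843 with B16 tumours, 299 with LLC tumours and 215.5 in the normal lung, 3.91-fold (1.97) and 1.39-fold (0.47) above control. Hspg2, the basement membrane proteoglycan perlecan, read 88.8 with LLC tumours and was below the floor in the others, at least 3.76-fold higher. The list's median log2 difference was 0.12 with B16 tumours and 0.20 with LLC tumours against control, and that of the inducers 0.13 and 0.06, while the medians of the first and second lists were 0 in both. Over all probe sets the median was 0, and over those with a mean signal of at least 500 it was 0.07 and 0.05.

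**Figure D4:**
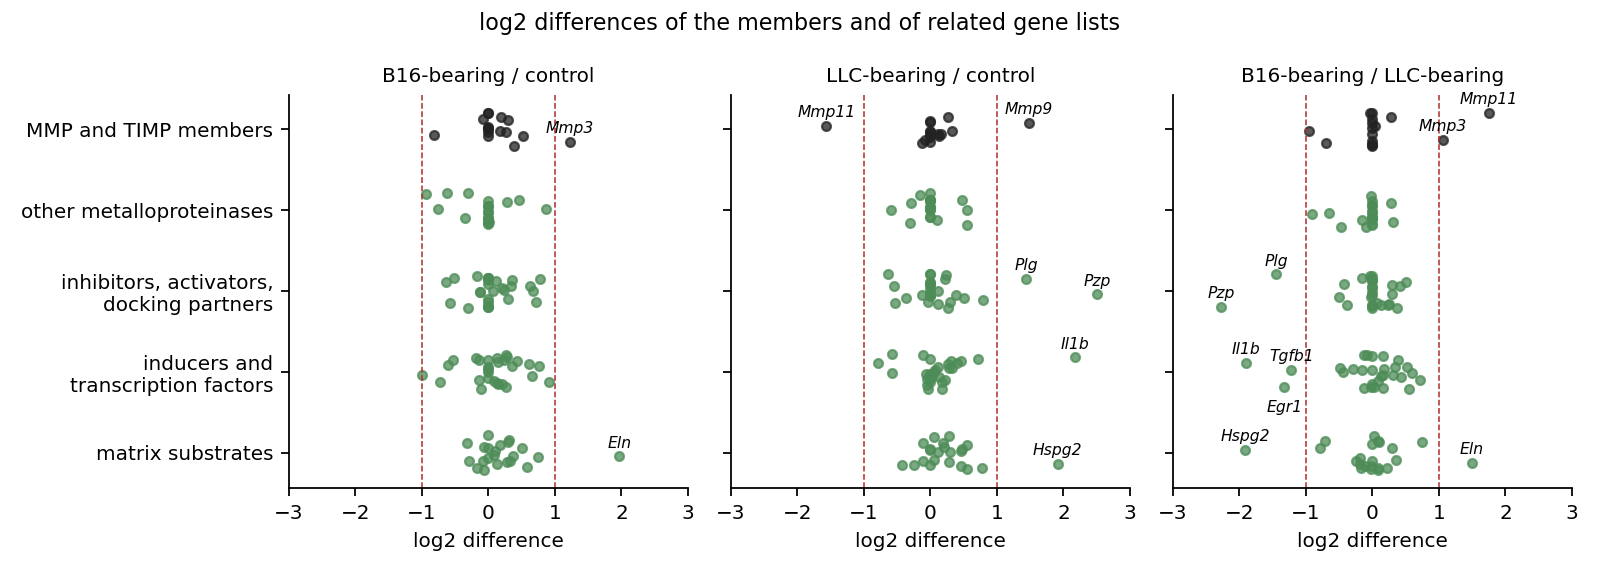
log2 difference (x axis) of the 16 member probe sets (black) and of the genes of 4 related lists on their brightest probe set (green), by comparison (panels); dashed lines mark 2-fold, genes past it are named, and points are shifted vertically for view. Points at 0 include probe sets below the floor on both arrays, and the list of other metalloproteinases has no point past 2-fold.

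The genes whose pair of differences from control came nearest to that of Mmp9 over the 3 arrays, among 5128 genes above the floor on all of them, were Dck, which encodes deoxycytidine kinase, 1700017B05Rik and Rogdi. They lay at Euclidean distances of 0.071, 0.12 and 0.15 on the log2 scale, and 5 genes in all lay within 0.2 of Mmp9. Dck, on a probe set shared by a gene family, read 87.4 with B16 tumours, 159 with LLC tumours and 58.0 in the normal lung. For Timp1 the nearest were Aprt, adenine phosphoribosyltransferase, Gpx1, glutathione peroxidase 1, and Tex261, at distances of 0.0062, 0.015 and 0.016, but 451 genes lay within 0.2, so many genes had the Timp1 pattern. Mmp8 was not above the floor and had no such neighbours.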

How the data were processed

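Per the labels' protocols, TRIzol was used to isolate the RNA, and the biotinylated cRNA was prepared as Affymetrix prescribes. The deposited values are intensity values, linear and partly negative, so background had been subtracted; how probes were summarised is not given in the sources used here. In each column the trimmed mean was 100.1, so the arrays appear scaled before deposit. Symbols came from GEO's platform annotation; all 16 member probe sets matched RefSeq by gene ID with the same symbol.

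Arrays were brought to 1 scale with a factor each, chosen so that probe sets brighter than the median had a median log2 ratio of 0 to control (0.987, 1.01 and 1 for the B16-bearing, LLC-bearing and normal array). The floor was a signal of 23.6 (percentile 40 over all arrays), and lower values were raised to it for log2. A fold with the dimmer side below the floor is a lower bound. Single arrays give no p-value or standard error, and the number of arrays limits the precision. The 66 control probe sets were left out.

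Named by rule were all members, up to 4 genes per related list that were past 2-fold in any comparison, by size, and the 3 genes nearest to Mmp8, Mmp9 and Timp1. Lists used each gene's brightest probe set. The members and lists were chosen with earlier results of these data known. The steps were tested on simulated data, with planted changes larger than any member difference. These were planted only in probe sets above a signal of 100, so the test did not cover the signals of Mmp3 and Mmp9. Python 3.11.15, numpy 2.4.6 and pandas 2.3.3 were used. The alternatives were other array factors, higher floors and the brightest probe set per gene.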

Additional observations from a re-analysis of the deposited data

Results flagged for a closer look

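Mmp11 stood on opposite sides of the normal lung in the tumour-bearing lungs, with a log2 difference of −1.57 with LLC tumours and 0.19 with B16 tumours. The second value is 0.42 robust SDs of probe sets of like signal. With 1 array per group the difference between the lungs was not tested.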

How the results depend on the processing

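With array factors from all probe sets, or with the values as deposited, all 6 counts and medians of the members and all 48 single differences were within the tolerance (0.1 on the log2 scale, 1.5 times for a count). Mmp12 changed sign between the tumour-bearing lungs, from −0.0076 to at most 0.028. With a floor at percentile 60, the members at least 2-fold different numbered 0 with B16 tumours against control (1 as reported) and 1 between the tumour-bearing lungs (2 as reported). With a floor of 100 there were 0, 1 and 1 with B16 tumours against control, the LLC-bearing lung against control and between the tumour-bearing lungs; Mmp11 stayed past 2-fold (−1.16 with LLC tumours), while Mmp9 was 0.59 there. The fewer calls follow from the higher floor, which lifts the dim side of Mmp3 and Mmp9. A floor of 100 also lifts the brightest Mmp3 value, 88.6 with B16 tumours, so no Mmp3 difference is left there. With the brightest probe set per gene the median log2 difference was 0.22 with B16 tumours and 0.12 with LLC tumours against control. No paired analysis was possible because each group is 1 array. The control signals of Mmp3 and Mmp9, 38.0 and 54.0, compare with a floor of 23.6.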

Other observations

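The ADAM sheddases, membrane proteases related to MMPs, were not all on the same side of control; these genes were named after their values were seen. Adam10, a sheddase of Notch and cadherins, read 108 with B16 tumours, 169 with LLC tumours and 206 in the normal lung (−0.94 and −0.29 against control), and Adam9 160, 222 and 246 (−0.62 and −0.15). Adam15 had the opposite order, at 150.0, 121 and 82.0 (0.87 and 0.56). Adam17, which releases tumour necrosis factor, read 56.5, 106 and 72.1 (−0.35 and 0.55). None reached 2-fold.

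The type IV collagen chains of basement membranes, substrates of the gelatinases, were above control in both tumour-bearing lungs but under 2-fold. They and Serpinf2 were named after their values were seen. Of the 22 matrix substrates on the array, 13 were higher than control and 6 lower with B16 tumours, and 15 and 5 with LLC tumours. Of all 12422 probe sets, 3863 were higher and 4085 lower with B16 tumours, and 4027 and 3994 with LLC tumours. The rest showed no difference above the floor. The list used each gene's brightest probe set, so fewer of its values lay below the floor. Col4a1 read 1339 with B16 tumours, 1145 with LLC tumours and 942 in the normal lung (0.51 and 0.28), and Col4a2 1334, 1087 and 792 (0.75 and 0.46). Serpinf2, the plasmin inhibitor alpha-2-antiplasmin, on a probe set named as one with relaxed probe selection, read 104, 105 and 60.7 (0.78 and 0.80).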
